A study of Rattus norvegicus with 30 samples.

Results

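Ndrg2, Mlc1, Cldn10, Slc1a3, Cspg5, Ptn and Agt are 7 genes that astrocytes express strongly, and their transcripts were followed in the amygdala of 30 rats, 1 array per rat. Each gene was read from its annotated probe, and from the brighter of its 2 probes in the case of Cspg5. These 7 are among 13337 genes with a symbol on the array, and all 7 lay above the intensity filter used for testing, among 9165 such genes. The rats were adult Sprague Dawley animals. In extreme rats a predator scent had been followed by a strong change in behaviour, in minimal rats the same scent had been followed by little change, and control rats took the behavioural tests without any scent. Each of these 3 conditions held 5 females and 5 males, so there were 6 groups of 5 rats, and the labels name a separate rat for every array. The labels state no other treatment. Females and males carry different series of rat identifiers, so sex and series cannot be told apart, and 0 probes named for Xist or a Y-linked gene were available to check the sex labels.

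The 7 genes were chosen by measured values of these same arrays, so part of what follows is a description without a test. Ndrg2 stood out in extreme against minimal females, Mlc1 and Cldn10 in extreme against control females, Cspg5 in minimal against control females, and Slc1a3 as a further astrocyte gene. What drew attention to Ptn and Agt is not known here. All differences between female groups, and all differences of Ptn and Agt, are therefore given as values with standard errors and no individual p. Values are log2 intensities, on which a difference of 1 is a doubling, and levels are compared between rats for the same probe, not between probes.

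Astrocytes are the glial cells that clear neurotransmitter from the extracellular space, buffer ions and water, supply neurons with metabolites and shape the matrix around synapses. In the amygdala, which processes threat, they surround excitatory and inhibitory neurons of several nuclei. The 7 genes cover several of these tasks. Slc1a3 encodes the glutamate transporter GLAST, Mlc1 a membrane protein of astrocyte contacts involved in ion and volume control, and Cldn10 a claudin of cell contacts. Ndrg2 encodes a cytoplasmic protein enriched in astrocytes, Cspg5 the membrane-bound chondroitin sulfate proteoglycan neuroglycan C, Ptn the secreted heparin-binding growth factor pleiotrophin, and Agt the secreted angiotensin precursor angiotensinogen.

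In the RefSeq annotation of the rat assembly GRCr8, Ndrg2 (gene 171114) lies on chromosome 15 from 27074481 to 27087376 and Cldn10 (gene 290485) on the same chromosome from 102269858 to 102361589. Mlc1 (gene 315215) lies on chromosome 7 from 121926356 to 121949484, and Slc1a3 (gene 29483) on chromosome 2 from 59482707 to 59557808. Ptn (gene 24924) lies on chromosome 4 from 66260764 to 66342614, Cspg5 (gene 50568) on chromosome 8 from 119098932 to 119113191 and Agt (gene 24179) on chromosome 19 from 69426540 to 69447017. The set of promoter windows used here held 2 transcription starts for Ndrg2 and 3 for Slc1a3. RefSeq promoter windows, from 250 bases before to 50 bases after a transcription start, were found for 5 of the 7 genes, all except Cspg5 and Agt. The windows of Ndrg2, Mlc1 and Ptn are shown because these genes carry the clearest patterns below: Ndrg2 parts the female groups by behaviour, and Mlc1 and Ptn move in opposite directions between 2 sets of arrays. They lie on the minus strand at chr15:27083071-27083370, chr7:121946649-121946948 and chr4:66342283-66342582 (GRCr8) and are written 5′ to 3′ along the gene, with motif matches in capitals. The Ndrg2 window printed is that of its first start in this set. The window of its second start, at chr15:27082453-27082752, is not printed and held none of the motifs searched. All printed windows lie inside the gene ranges given above, which extend further upstream, and the bases upstream of the windows were not searched.
Ndrg2: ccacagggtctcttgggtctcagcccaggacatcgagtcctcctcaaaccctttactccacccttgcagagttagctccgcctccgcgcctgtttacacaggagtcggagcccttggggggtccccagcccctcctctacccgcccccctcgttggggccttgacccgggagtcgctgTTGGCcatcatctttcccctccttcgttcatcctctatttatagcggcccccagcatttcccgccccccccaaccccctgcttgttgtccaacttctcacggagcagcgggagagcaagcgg
Mlc1: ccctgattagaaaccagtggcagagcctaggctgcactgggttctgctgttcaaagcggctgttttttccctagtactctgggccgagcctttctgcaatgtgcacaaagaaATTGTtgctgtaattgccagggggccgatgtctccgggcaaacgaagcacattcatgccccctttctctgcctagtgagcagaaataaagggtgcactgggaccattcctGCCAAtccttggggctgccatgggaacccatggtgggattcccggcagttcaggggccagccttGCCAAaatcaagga
Ptn: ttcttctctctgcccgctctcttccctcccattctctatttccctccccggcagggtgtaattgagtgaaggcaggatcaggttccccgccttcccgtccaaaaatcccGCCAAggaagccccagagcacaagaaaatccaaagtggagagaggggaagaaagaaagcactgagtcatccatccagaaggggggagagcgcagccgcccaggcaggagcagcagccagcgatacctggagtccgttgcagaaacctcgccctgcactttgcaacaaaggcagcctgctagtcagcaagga
The NFI, SOX, STAT and glucocorticoid receptor motifs, of factors active in astrocytes or in the stress response, were searched on both strands. The NFI motif TTGGC was found at position -72 from the start in Ndrg2, at -28 and 36 in Mlc1, at -141 in Ptn and also in the Slc1a3 windows, and it occurs in 45.8% of all 33469 rat promoter windows. The SOX motif ACAAT, present in 33.7% of all windows, was found in Mlc1 at -138. The STAT motif TTCNNNGAA (8.87% of windows) and the glucocorticoid receptor motif AGAACA (20.7%) matched in none of the windows of these 5 genes, and the Cldn10 window held none of the 4 motifs. These are letter matches in 300 bases and nothing more.

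Ndrg2 was lower in extreme than in minimal females, and Mlc1, Cldn10 and Cspg5 were lower in scent-exposed than in control females. The genes were chosen on female comparisons of this kind, so this pattern restates the choice. It does not part the genes cleanly. Mlc1 was also lower in extreme than in minimal females, at -0.62 ± 0.24, beside -0.61 ± 0.09 for Ndrg2. A limma fit to all 30 arrays with Benjamini-Hochberg adjustment over 13308 probes called 1 of the 7 genes, Ndrg2, lower in extreme than in minimal females, where 0.128% of all probes were called, 0.0676% higher and 0.0601% lower. It called 3 (Mlc1, Cldn10 and Cspg5) lower and 0 higher in extreme than in control females (6.53% of all probes, 3.35% higher and 3.18% lower), and 2 (Cldn10 and Cspg5) lower and 0 higher in minimal than in control females (1.98%, 0.827% higher and 1.15% lower). With both exposed female groups averaged against control, Mlc1, Cldn10 and Cspg5 were called lower (6.87%, 3.27% higher and 3.6% lower). As these contrasts brought the genes to notice, nothing is read from these counts. The median difference of the 7 genes was -0.07 for extreme minus minimal, -0.28 for extreme minus control, 0.08 for minimal minus control and 0.03 for exposed minus control females, beside medians of about 0 for all probes. The comparisons against control share the same 5 control females.

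In males, 0 of the 7 genes were called by limma in any comparison between conditions. For extreme minus minimal males 0% of probes were called in all, and 3 of the 7 genes had an unadjusted p under 0.05, as did 1330 of all 13308 probes. For extreme minus control males 0.797% of probes were called, 0.301% higher and 0.496% lower, and 5 of the 7 genes had an unadjusted p under 0.05, as did 1843 of all probes. For minimal minus control males 0% were called, with 1 gene and 686 of all probes under 0.05 unadjusted, and for exposed minus control males 0% were called, with 2 genes and 1247 of all probes. The male values were also known when the genes were chosen. Ptn or Agt, whose choice is not explained here, is among the genes counted in all but minimal minus control. Nothing is therefore read from these counts either. The female minus male difference of extreme minus minimal was called for 0 of the 7 genes (0.0526% of all probes, 0.0301% higher and 0.0225% lower). That of exposed minus control was called for 3, Agt higher and Cldn10 and Cspg5 lower (4.49%, 2.25% higher and 2.24% lower), and it holds the female values by which genes were chosen. Medians over the 7 genes were 0.05, 0.01, -0.04 and -0.02 in these 4 male comparisons. In males as in females, the control rats are shared between the comparisons.

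**Figure D1:**
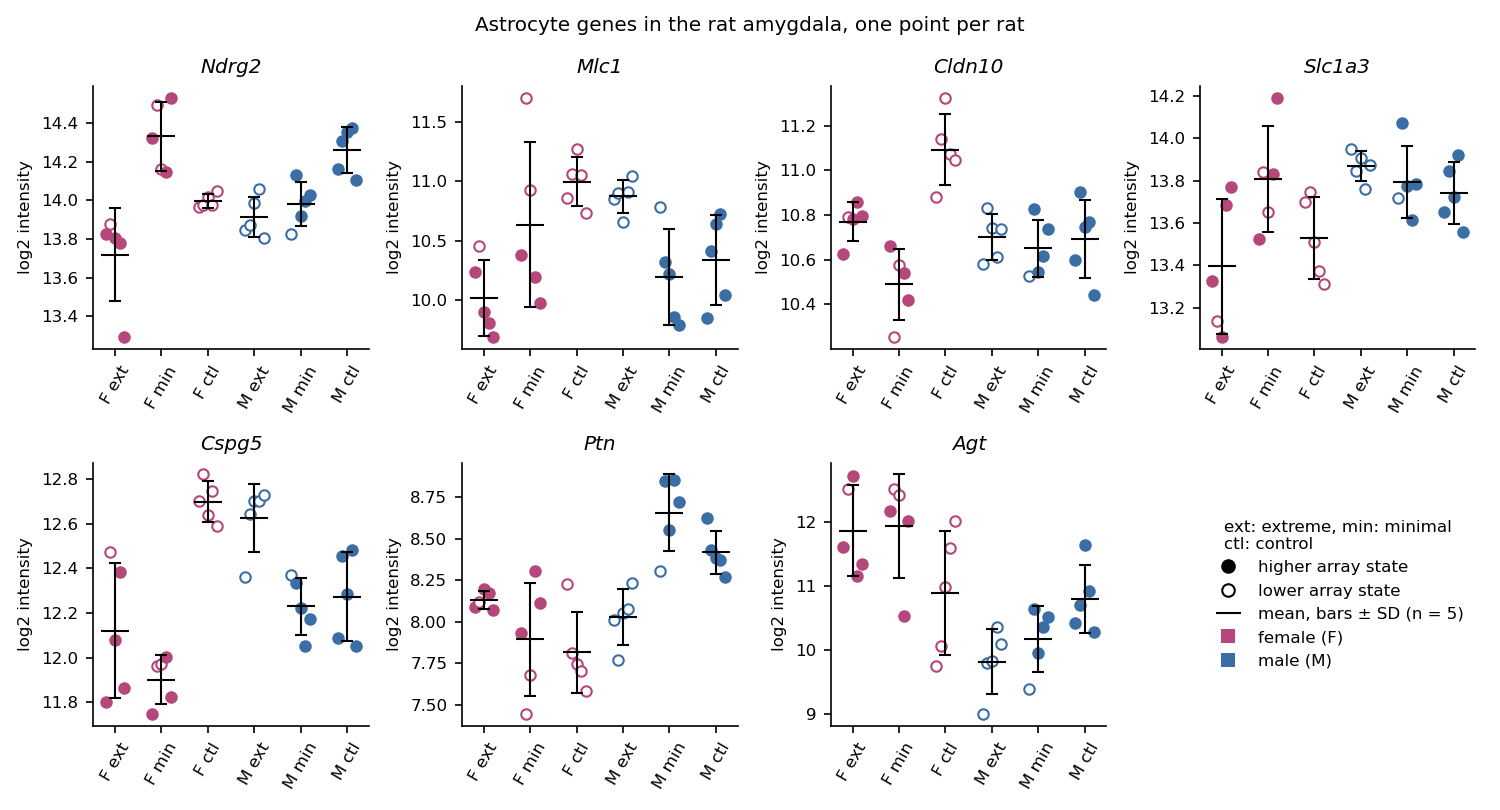
Log2 intensity of each of the 7 genes (vertical axes) in the 6 groups of 5 rats (horizontal axes), 1 point per rat, with the group mean and bars of ± 1 SD. Open points are arrays of the lower and filled points arrays of the higher array state described in the text; Ndrg2 in extreme females lies at 13.29 to 13.88, below all 5 minimal females at 14.14 to 14.53.

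**Figure D2:**
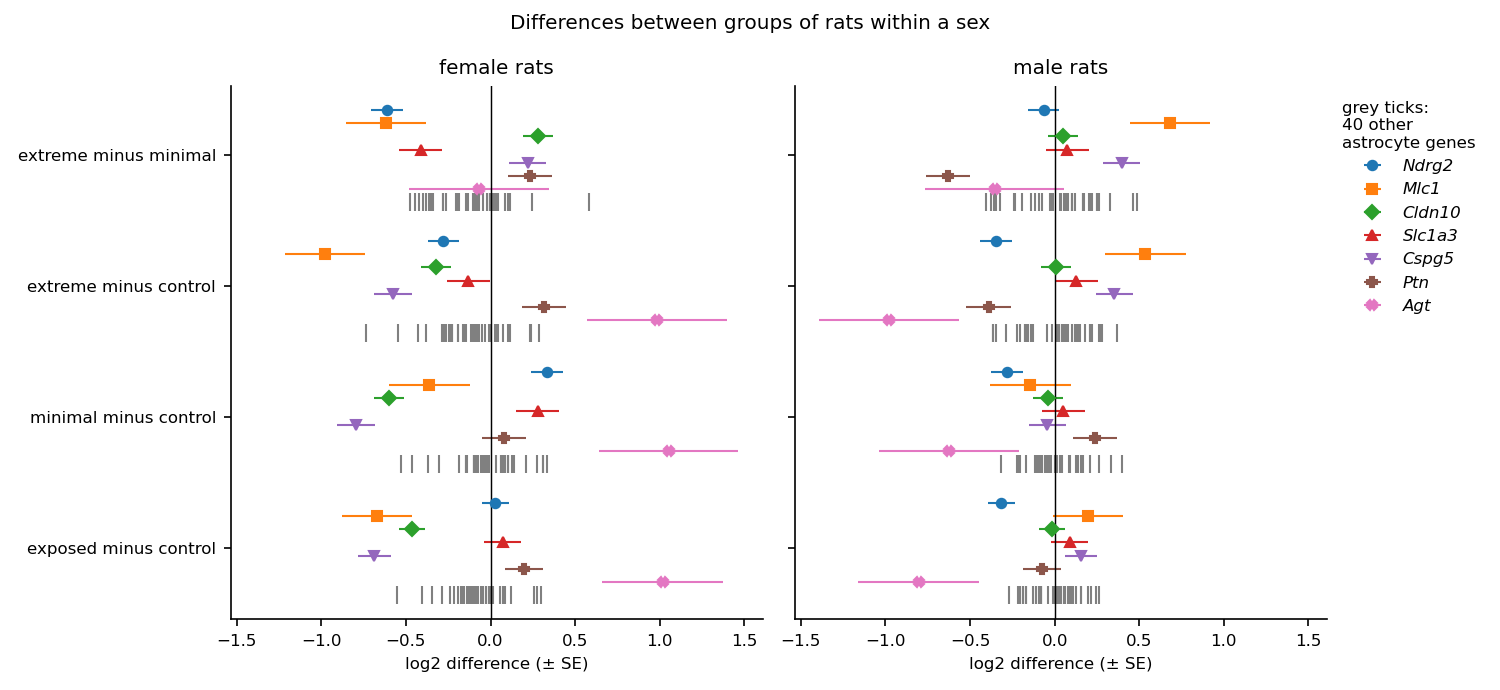
Log2 differences with standard errors (horizontal axes) of the 7 genes in 4 comparisons within females (left panel) and males (right panel), with the other 40 astrocyte genes as grey ticks. Cspg5 and Mlc1 lie left of 0 in exposed minus control females, at -0.69 and -0.67, while the medians of the grey ticks lie between -0.13 and 0.07 in all 8 comparisons.

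Arrays differed in ways that cross the groups, and these differences bear on several of the 7 genes. The mean of the ribosomal protein probes Rpl37l1, Rpl7 and Rpl23 parted the arrays with a gap of 1.38 into 14 with a lower and 16 with a higher level, called array states here. The lower state held all 5 control females, all 5 extreme males, 2 minimal females, 1 extreme female and 1 minimal male, while all 5 control males were in the higher state. Extreme and control males thus lay wholly in opposite states, and condition and state cannot be told apart there. Within the groups that held both states, 1170 of 13308 probes (8.79%) differed between them. These groups were extreme females (4 higher, 1 lower), minimal females (3 and 2) and minimal males (4 and 1), so the state difference rests on few lower-state arrays. Markers of neighbouring brain regions also varied, most of all between females. Mean log2 intensities of the pallial excitatory markers ran from 7.36 (Neurod2) to 12.12 (Lamp5), against a median of all values of 7.02. Those of the striatal and central amygdala markers ran from 7.87 (Drd1) to 10.87 (Rarb). Thalamic markers above the filter ran from 7.12 (Tcf7l2) to 10.00 (Slc17a6). Choroid plexus and ependymal markers above the filter ran from 6.93 (Kcnj13) to 11.90 (Enpp2). Apart from Enpp2 and Ttr (8.60), none of these exceeded 7.20 (Otx2), close to that median. Enpp2 also stands on the myelin list. Astrocyte markers outside the 7 genes ran from 6.93 (Rorb) to 14.78 (Cst3), with Gfap at 12.12 and Aqp4 at 8.02. Probes differ in brightness, so these levels do not rank cell types or regions. RNA of the whole amygdala was measured, so fewer astrocytes and less RNA per astrocyte cannot be told apart in any difference below.

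Ndrg2 belongs to the N-myc downstream-regulated family and is used as a marker of astrocyte cell bodies. In females it read 13.83, 13.88, 13.81, 13.78 and 13.29 in extreme rats, 14.32, 14.49, 14.16, 14.14 and 14.53 in minimal rats, and 13.97, 13.98, 14.02, 13.98 and 14.05 in control rats. All 5 extreme females lay below every control female, and all 5 minimal females lay above every control female, so the 3 female groups did not overlap at any boundary. Ndrg2 was chosen on female values, and how many of all probes part the groups in this way was not counted. Nor was this counted for the other separations of groups given below. Means were 13.72 ± 0.24 in extreme females, 14.33 ± 0.18 in minimal females and 14.00 ± 0.03 in control females (SD, n = 5 each). The difference was -0.61 ± 0.09 (SE) for extreme minus minimal, a linear ratio of 0.654, with -0.28 ± 0.09 for extreme minus control and 0.33 ± 0.09 for minimal minus control. Because the exposed groups lay on either side of control, their average differed from control by 0.03 ± 0.08. In the order of group means, minimal females came first, followed by control males, control females, minimal males, extreme males and extreme females. Only 2 of the 5 steps in that order exceeded the within-group SD of 0.15, those from control males to control females and from extreme males to extreme females.

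The array state did not move with Ndrg2. Within groups that held both states the higher state differed from the lower by -0.002 ± 0.089, with an adjusted p of 0.991. Among arrays of the higher state alone, 4 extreme females differed from 3 minimal females by -0.65 ± 0.11, and the difference was -0.45 ± 0.18 between 1 extreme and 2 minimal females of the lower state. Extreme and minimal females of the same number deviated together across all probes (mean r 0.421), and in a fit with that number as a blocking factor the call stayed. The labels pair no rats, and the block spanned all groups, so that fit is no paired test. The call was not made in a fit to the 15 female arrays alone, where 7 probes were called in all. Extreme female 5, at 13.29, was the lowest of all 30 rats, and without it the difference was -0.51.

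In males Ndrg2 read 13.85, 13.87, 13.98, 14.06 and 13.81 in extreme rats, 13.83, 14.13, 13.92, 14.00 and 14.03 in minimal rats, and 14.16, 14.31, 14.35, 14.37 and 14.11 in control rats. All extreme males lay below all control males, whereas extreme and minimal males overlapped. Extreme minus control males gave -0.35 ± 0.09 (adjusted p 0.0666), minimal minus control -0.28 ± 0.09 (0.788) and extreme minus minimal -0.07 ± 0.09 (0.883), so no male difference passed the threshold of 0.05. The female minus male difference of extreme minus minimal was -0.55 ± 0.13 and was not called.

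Mlc1, which forms a complex with the adhesion molecule GlialCAM where astrocytes meet one another and the blood vessels, differed more between the array states than any other of the 7 genes. In females it read 10.23, 10.45, 9.90, 9.80 and 9.69 in extreme rats, 10.37, 11.70, 10.92, 10.19 and 9.97 in minimal rats, and 10.86, 11.06, 11.27, 11.05 and 10.73 in control rats. All extreme females lay below all control females, and minimal females spread across both. Extreme minus control gave -0.98 ± 0.24, a linear ratio of 0.507, extreme minus minimal -0.62 ± 0.24, minimal minus control -0.36 ± 0.24 and exposed minus control -0.67 ± 0.21. The call for exposed minus control was lost when any 1 of 10 of the 15 arrays was left out, namely control females 1 to 4, minimal females 1, 4 and 5 and extreme females 3 to 5, with values of -0.59 to -0.70.

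In males Mlc1 read 10.85, 10.90, 10.66, 10.91 and 11.04 in extreme rats, 10.79, 10.32, 10.21, 9.86 and 9.79 in minimal rats, and 9.85, 10.41, 10.64, 10.73 and 10.04 in control rats. Extreme males were high, and 1 minimal male and 1 control male reached their range. Extreme minus minimal gave 0.68 ± 0.24 (adjusted p 0.285) and extreme minus control 0.54 ± 0.24 (0.303), in the opposite direction to females, and minimal minus control was -0.14 ± 0.24. None of the 5 steps between neighbouring group means, from control females at 10.99 ± 0.21 to extreme females at 10.02 ± 0.32, exceeded the within-group SD of 0.40.

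Mlc1 was lower in the higher array state by a log2 difference of -0.85 ± 0.16 within groups (adjusted p 0.001). Over all arrays it ranged from 9.69 to 10.73 (median 10.12) in the 16 arrays of the higher state and from 10.45 to 11.70 (median 10.91) in the 14 of the lower state, and 14 of the 16 lay below the lowest of the 14. With the state as a covariate, extreme minus control females was -0.30, no longer called, exposed minus control females was -0.07, minimal minus control females turned to 0.15, and extreme minus control males turned to -0.32. Both female calls of Mlc1 were thus lost in the fit with the state. That fit removes a state difference estimated only in the groups that held both states. Extreme and control males shared no state, so their value in it cannot part condition from state.

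Cldn10 encodes a claudin, a protein that seals or makes ion-selective pores between neighbouring cells. Its female values were 10.62, 10.79, 10.78, 10.86 and 10.80 in extreme rats, 10.66, 10.25, 10.58, 10.54 and 10.42 in minimal rats, and 10.88, 11.14, 11.32, 11.07 and 11.05 in control rats. Every exposed female lay below every control female, and extreme and minimal females overlapped at a single boundary, where minimal female 1 at 10.66 exceeded extreme female 1 at 10.62. Extreme minus control gave -0.32 ± 0.09, minimal minus control -0.60 ± 0.09, exposed minus control -0.46 ± 0.08 (a linear ratio of 0.725) and extreme minus minimal 0.28 ± 0.09. The call for extreme minus control was lost without any 1 of 4 arrays, control females 2 and 3 and extreme females 1 and 3.

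In males Cldn10 read 10.58, 10.83, 10.74, 10.61 and 10.74 in extreme rats, 10.53, 10.83, 10.55, 10.62 and 10.74 in minimal rats, and 10.60, 10.91, 10.75, 10.77 and 10.44 in control rats. The 3 male groups covered the same range, and exposed minus control was -0.02 ± 0.08 (adjusted p 0.973). Control females, at 11.09 ± 0.16, and minimal females, at 10.49 ± 0.16, marked the 2 ends of the order, and the 4 groups between them differed by less than the within-group SD of 0.14. The array state was not linked to Cldn10 (0.09 ± 0.08, adjusted p 0.528). Within the lower state alone, where 3 exposed and 5 control females could be compared, exposed minus control was -0.49 ± 0.11. There the 1 extreme female counted as much as the 2 minimal females together.

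Slc1a3 removes glutamate from the extracellular space and is carried by astrocytes throughout the brain. Female values were 13.32, 13.14, 13.06, 13.68 and 13.77 in extreme rats, 13.52, 13.84, 13.65, 13.83 and 14.19 in minimal rats, and 13.70, 13.75, 13.51, 13.37 and 13.31 in control rats. All 3 female groups overlapped, and the 4 lowest values belonged to extreme females 1, 2 and 3 and control female 5. Extreme minus minimal was -0.41 ± 0.13, extreme minus control -0.13 ± 0.13 and minimal minus control 0.28 ± 0.13, and limma called none of them.

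In males Slc1a3 read 13.95, 13.85, 13.90, 13.76 and 13.87 in extreme rats, 13.72, 14.07, 13.77, 13.61 and 13.78 in minimal rats, and 13.65, 13.85, 13.72, 13.92 and 13.56 in control rats. The groups overlapped throughout and the differences between them were at most 0.13 ± 0.13 (adjusted p 0.722 for extreme minus control). Extreme males stood first at 13.87 ± 0.07 and extreme females last at 13.40 ± 0.32, and only the step from control males to control females exceeded the within-group SD of 0.21. The spread within groups was wider in females, with a pooled SD of 0.26, than in males, at 0.14.

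Cspg5 was read by 2 probes, the brighter of which is used unless the other is named. Its product is a transmembrane proteoglycan of neurons and glia that takes part in neurite growth and synapse formation. In females it read 11.80, 12.47, 12.08, 12.38 and 11.86 in extreme rats, 11.75, 11.96, 11.97, 12.00 and 11.82 in minimal rats, and 12.70, 12.82, 12.64, 12.74 and 12.59 in control rats. Every exposed female lay below every control female, while extreme and minimal females overlapped. Extreme minus control was -0.58 ± 0.11, minimal minus control -0.80 ± 0.11, exposed minus control -0.69 ± 0.10 (a linear ratio of 0.621) and extreme minus minimal 0.22 ± 0.11. The dimmer probe gave -0.76 ± 0.21, -0.63 ± 0.21, -0.69 ± 0.18 and -0.13 ± 0.21 for these 4 differences, so both probes were lower in exposed females and they disagreed in sign for extreme minus minimal.

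In males Cspg5 read 12.36, 12.64, 12.70, 12.70 and 12.73 in extreme rats, 12.37, 12.34, 12.22, 12.05 and 12.17 in minimal rats, and 12.09, 12.45, 12.28, 12.48 and 12.05 in control rats. Extreme males were high apart from male 1, which lay among the minimal and control males. Extreme minus minimal gave 0.40 ± 0.11 (adjusted p 0.182), extreme minus control 0.35 ± 0.11 (0.129) and minimal minus control -0.04 ± 0.11, none past the threshold. Control females (12.70 ± 0.09) and extreme males (12.63 ± 0.15) headed the order and did not differ beyond the within-group SD of 0.18, and both groups consisted wholly of lower-state arrays.

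The 2 probes of Cspg5 differed in how they followed the array state. Higher minus lower state within groups was -0.22 ± 0.10 for the brighter probe (adjusted p 0.150) and -0.75 ± 0.14 for the dimmer (0.002). Within the lower state alone the brighter probe gave -0.48 ± 0.12 for 3 exposed against 5 control females and the dimmer -0.13 ± 0.19. The exposed females were weighted as for Cldn10, 1 extreme female counting as much as 2 minimal females together. The exposed minus control difference of females was thus smaller within 1 state by both probes, and at the dimmer probe it was within its error.

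**Figure D3:**
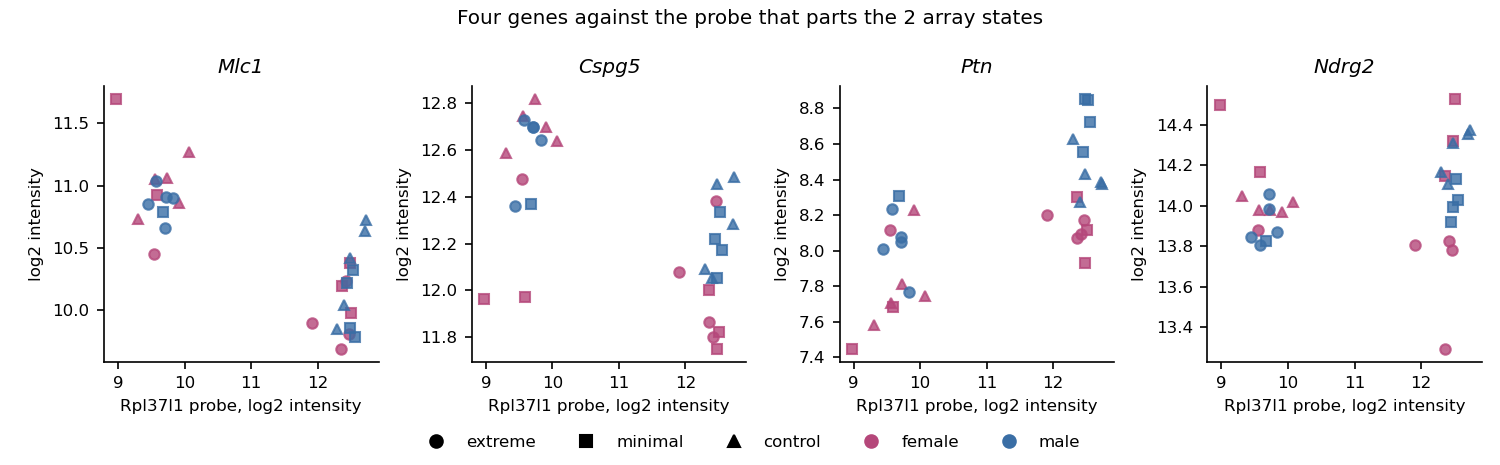
Log2 intensity of Mlc1, Cspg5, Ptn and Ndrg2 (vertical axes) against the log2 intensity of the Rpl37l1 probe (horizontal axes), 1 point per rat, with conditions as symbols and sexes as colours. Mlc1 lies at 10.45 or above in the 14 lower-state arrays on the left and mostly below that in the 16 higher-state arrays on the right. The ranges of Ndrg2 overlap, at 13.81 to 14.49 in the lower state and 13.29 to 14.53 in the higher.

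Ptn is secreted into the matrix, where it binds heparan and chondroitin sulfate chains. Among females it read 8.09, 8.12, 8.20, 8.17 and 8.07 in extreme rats, 7.93, 7.45, 7.68, 8.30 and 8.11 in minimal rats, and 8.23, 7.81, 7.75, 7.71 and 7.58 in control rats. Extreme females kept within a narrow band (8.13 ± 0.05), and the other female groups lay on both sides of it. Extreme minus control was 0.32 ± 0.13, extreme minus minimal 0.23 ± 0.13 and minimal minus control 0.08 ± 0.13.

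In males Ptn read 8.01, 7.77, 8.05, 8.08 and 8.24 in extreme rats, 8.31, 8.85, 8.55, 8.86 and 8.72 in minimal rats, and 8.63, 8.43, 8.39, 8.38 and 8.27 in control rats. All 5 extreme males lay below all minimal and all control males. Extreme minus minimal was -0.63 ± 0.13, extreme minus control -0.39 ± 0.13 and minimal minus control 0.24 ± 0.13. Minimal males (8.66 ± 0.23) and control males (8.42 ± 0.13) headed the order, and steps beyond the within-group SD of 0.22 came only between these 2 groups and between control males and extreme females. Ptn was higher in the higher state by 0.37 ± 0.10 within groups, and the 5 extreme males were all of the lower state. With the state as a covariate extreme minus control males was -0.02 and extreme minus minimal males -0.34. Extreme and control males shared no state, so the value of -0.02 rests on a state difference estimated in other groups. It cannot part condition from state. Against the only minimal male of the lower state, the 5 extreme males differed by -0.28 ± 0.18.

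Agt supplies the substrate from which the angiotensin peptides are cut, and in mice astrocytes of the diencephalon and brainstem carry more of it than those of the forebrain. In females it read 11.61, 12.51, 12.72, 11.15 and 11.34 in extreme rats, 12.18, 12.52, 12.43, 10.53 and 12.02 in minimal rats, and 9.75, 10.07, 10.99, 11.59 and 12.03 in control rats. Exposed females were mostly high, and control females spread from 9.75 to 12.03, so all groups overlapped. Extreme minus control was 0.98 ± 0.41, minimal minus control 1.05 ± 0.41, exposed minus control 1.02 ± 0.36 (a linear ratio of 2.03) and extreme minus minimal -0.07 ± 0.41.

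In males Agt read 9.00, 9.79, 9.83, 10.36 and 10.09 in extreme rats, 9.38, 10.63, 9.95, 10.36 and 10.52 in minimal rats, and 10.43, 10.70, 11.65, 10.91 and 10.28 in control rats. Extreme males were low, control males high, and the groups overlapped. Extreme minus control was -0.98 ± 0.41, minimal minus control -0.62 ± 0.41, exposed minus control -0.80 ± 0.36 and extreme minus minimal -0.35 ± 0.41, so exposed males and exposed females lay on opposite sides of their controls. Agt had the widest spread of the 7 genes on the log2 scale, with a within-group SD of 0.70 and a range of 9.00 to 12.72. Among lower-state arrays alone, 3 exposed females, weighted as for Cldn10, differed from 5 control females by 1.61 ± 0.47. With the 3 regional means as covariates exposed minus control females was 0.51. Only the step from extreme females (11.87 ± 0.71) to control females (10.88 ± 0.97) exceeded the within-group SD.

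Of 53 further genes listed as astrocyte markers, 40 had a probe above the filter. For extreme minus minimal females 0 of the 40 were called, beside 0.128% of all probes, and 5 had an unadjusted p under 0.05, as did 1261 of all 13308 probes. The smallest p values belonged to Cbs (-0.38 ± 0.14), Acsbg1 (-0.35 ± 0.14) and Fabp7 (0.58 ± 0.25), with a median of -0.10 over the list beside a median of about 0 over all probes. For extreme minus control females 1 gene, the glutathione transferase Gstm1, was lower (-0.73 ± 0.19, adjusted p 0.0207) and 0 were higher, 1 of 40 beside 6.53% of all probes. For minimal minus control females the protease inhibitor Cst3 rose (0.28 ± 0.07, 0.0463) and F3, the tissue factor of blood clotting, fell (-0.53 ± 0.14, 0.0454), 2 of 40 beside 1.98% of all probes. For exposed minus control females Cst3 (0.25 ± 0.06) and the lipid carrier Apoe (0.27 ± 0.07) rose, and F3 (-0.41 ± 0.12) and Gstm1 (-0.55 ± 0.17) fell, 4 of 40 beside 6.87% of all probes. Medians of the 40 genes were -0.13, -0.03 and -0.08 in these 3 comparisons.

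In males 0 of the 40 other astrocyte genes were called in any of the 4 comparisons. At an unadjusted p under 0.05 there were 6 for extreme minus minimal, 7 for extreme minus control, 0 for minimal minus control and 2 for exposed minus control, beside 1330, 1843, 686 and 1247 of all 13308 probes in the same order. The smallest p values belonged to the lipid phosphatase gene Plpp3 (0.49 ± 0.14), the glycolytic aldolase Aldoc (0.33 ± 0.12) and the metal-binding Mt3 (0.25 ± 0.10) for extreme minus minimal males, and to Cst3 (0.26 ± 0.07), Cyp4f4 (-0.37 ± 0.16) and Id3 (-0.37 ± 0.16) for extreme minus control males. For minimal minus control they belonged to Cst3 (0.14 ± 0.07), the potassium channel gene Kcnj10 (0.17 ± 0.09) and the sodium pump subunit gene Atp1b2 (-0.32 ± 0.21), and for exposed minus control to Cst3 (0.20 ± 0.06), Kcnj10 (0.16 ± 0.08) and Cyp4f4 (-0.27 ± 0.13). Medians over the 40 genes lay between -0.04 and 0.07. Between the array states, 8 of the 40 differed, beside 8.79% of all probes: Id3 was higher in the higher state, and Slc6a11 (-1.03 ± 0.19), Bcan, Fgfr3, Aqp4, Acsbg1, Atp1b2 and Tril were lower, the direction of Mlc1.

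Between the sexes, 3 of the 7 genes were called, 2 higher (Ptn and Slc1a3) and 1 lower (Agt) in males, where 19.2% of all probes were called, 8.99% higher and 10.2% lower. This contrast holds the female values by which genes were chosen, and the male values were also known then. Its calls and p-values for the 7 genes are therefore no independent evidence. Agt ranged from 9.00 to 11.65 with a median of 10.36 in 15 males, and from 9.75 to 12.72 with a median of 11.61 in 15 females. Males lay mostly low and the ranges overlapped, and the difference was -1.30 ± 0.24, a linear ratio of 0.405. Ptn ranged from 7.77 to 8.86 (median 8.38) in males and from 7.45 to 8.30 (median 8.07) in females, with a difference of 0.42 ± 0.08. Slc1a3 ranged from 13.56 to 14.07 (median 13.78) in males and from 13.06 to 14.19 (median 13.65) in females, so males lay inside the female range. Its difference of 0.22 ± 0.07 had an adjusted p of 0.0318, and the call was lost without any 1 of 9 arrays, 6 of females and 3 of males. Cspg5 (0.14 ± 0.06, adjusted p 0.137), Cldn10 (-0.10 ± 0.05, 0.164), Ndrg2 (0.04 ± 0.05, 0.696) and Mlc1 (-0.08 ± 0.14, 0.736) did not pass.

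Of the other astrocyte genes 9 of 40 were lower and 0 higher in males, with a median of -0.09. The smallest p values among them belonged to the peroxiredoxin Prdx6 (-0.34 ± 0.06), the amino acid transporter Slc7a10 (-0.49 ± 0.11), Atp1b2 (-0.52 ± 0.12) and the fatty acid binding protein Fabp7 (-0.53 ± 0.14). Markers of other regions and cells differed between the sexes too: all 8 tested thalamic genes (median -1.03), 13 of 14 myelin genes (median -1.18), 5 of 10 hypothalamic genes, 4 of 6 oligodendrocyte precursor genes and 3 of 8 choroid plexus and ependymal genes were lower in males, and 4 of 6 pallial excitatory genes (median 0.81) and 3 of 12 general neuronal genes were higher. With the myelin mean as a covariate, Agt was -0.75, Ptn 0.24 and Slc1a3 0.05 for male minus female, and 0 of the 7 genes and 82 of all probes were called. With the striatal, thalamic and hypothalamic means as covariates Agt was -0.39, Ptn 0.23 and Slc1a3 -0.059, again with 0 of the 7 called, beside 105 of all probes, so the direction of Slc1a3 turned. Without these covariates 2553 probes were called.

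**Figure D4:**
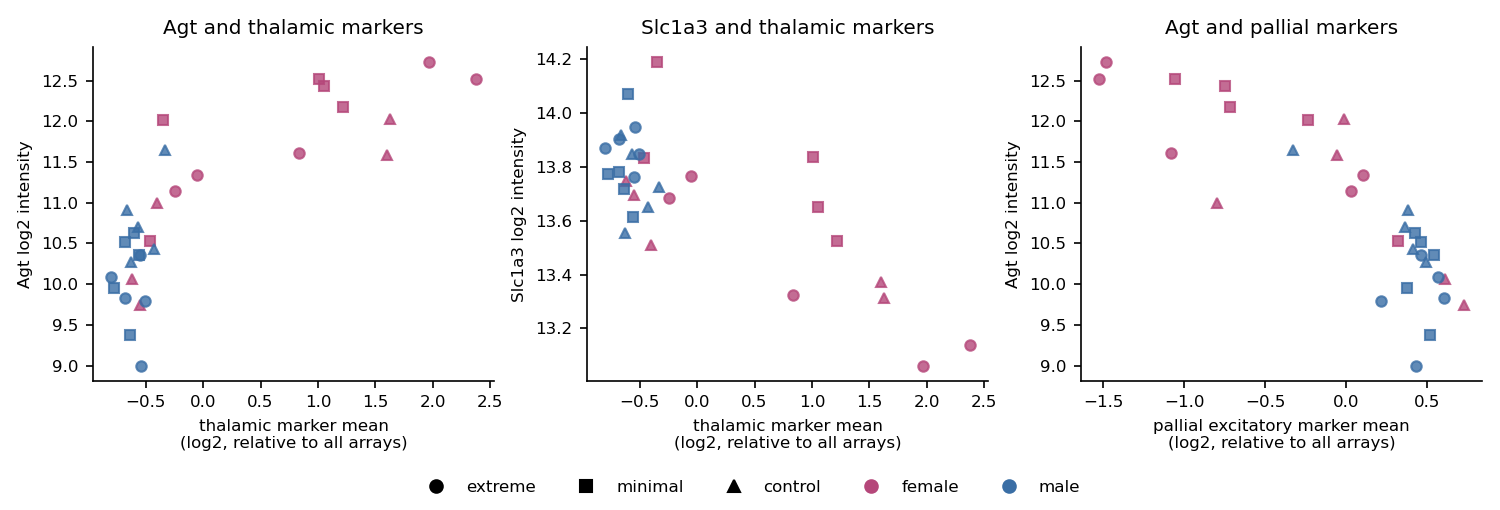
Agt against the thalamic marker mean, Slc1a3 against the thalamic marker mean, and Agt against the pallial excitatory marker mean, as log2 values with 1 point per rat, symbols for conditions and colours for sexes. Females spread from -0.62 to 2.37 on the thalamic axis while the 15 males stay between -0.80 and -0.34, and Agt is high and Slc1a3 low in the females to the right.

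The regional means varied among rats of the same group, mostly in females. The mean of the thalamic markers, relative to all arrays, was 0.97 ± 1.17 in extreme females, 0.49 ± 0.82 in minimal females and 0.33 ± 1.17 in control females, and -0.62 ± 0.12, -0.65 ± 0.08 and -0.53 ± 0.14 in extreme, minimal and control males (SD, n = 5 each). Pallial excitatory markers averaged -0.79, -0.49 and 0.09 in extreme, minimal and control females, and 0.46, 0.46 and 0.27 in the corresponding males. Myelin markers averaged 0.78, 0.67 and 0.14 in these female groups and -0.42, -0.74 and -0.44 in the male groups. Hypothalamic markers averaged 0.28, 0.58 and -0.05 in females and -0.33, -0.33 and -0.14 in males, and striatal and central amygdala markers -0.04, 0.55 and 0.10 in females and -0.11, -0.43 and -0.08 in males. Choroid plexus and ependymal markers averaged 0.53, 0.30 and 0.05 in females and -0.33, -0.28 and -0.26 in males, and oligodendrocyte precursor markers 0.27, 0.25 and 0.09 in females and -0.21, -0.25 and -0.14 in males. Group means ranged from -0.22 to 0.31 for meningeal markers, from -0.19 to 0.16 for blood, from -0.10 to 0.13 for general neuronal markers, from -0.09 to 0.04 for microglia, from -0.06 to 0.07 for endothelium and pericytes, and from -0.07 to 0.10 for the other astrocyte genes. In the female comparisons against control, limma called 3 of 6 pallial excitatory genes lower in extreme and in exposed females, 1 of 8 choroid plexus genes higher and 2 of 12 neuronal, 1 of 9 microglial and 1 of 6 precursor genes lower in extreme females, and 1 neuronal and 1 microglial gene lower in exposed females. Of all probes, 6.53% were called in extreme minus control and 6.87% in exposed minus control females. Of the genes on these lists 0 were called in extreme minus minimal females and 0 in any male comparison between conditions.

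Rat by rat within groups, the 7 genes did not move as a single block. With group means removed, Pearson correlations over 30 arrays for the 21 pairs ran from -0.606 to 0.511 with a median of 0.114, and 14 were positive and 7 negative. A single pair passed a within-group permutation test adjusted over the 21 pairs, Ndrg2 with Agt (r = 0.511, adjusted p 0.047; Spearman rho 0.532, adjusted p 0.039). The correlation was 0.443 without the 2 arrays farthest from the median of Ndrg2, 0.411 in 15 females and 0.760 in 15 males, and 0.310 and 0.597 in the lower and higher array state. The strongest negative pair, Mlc1 with Ptn, had r = -0.606 (adjusted p 0.059, rho -0.505, adjusted p 0.104), and within the lower and higher states r was -0.189 and -0.304. Mlc1 and Cspg5 correlated at 0.423 (adjusted p 0.121, rho 0.511, adjusted p 0.098). Slc1a3 and Agt correlated at -0.446 (adjusted p 0.205, rho -0.474, adjusted p 0.132), with -0.653 in females and 0.186 in males. Within the lower and higher states this last pair was at -0.894 and -0.247. With the myelin and the 3 regional means also removed, the pair past the threshold was Mlc1 with Cspg5 (r = 0.677, adjusted p 0.008). Ndrg2 with Agt was then at 0.442 (adjusted p 0.103), and Slc1a3 with Agt turned to 0.259 (adjusted p 0.353). That setting left the array state in place. With the state removed instead, Mlc1 with Cspg5 was at 0.178 (adjusted p 0.714), and the pair past the threshold was Ndrg2 with Agt (0.517, adjusted p 0.036). Within the lower and higher states Mlc1 with Cspg5 was at 0.118 and 0.360.

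**Figure D5:**
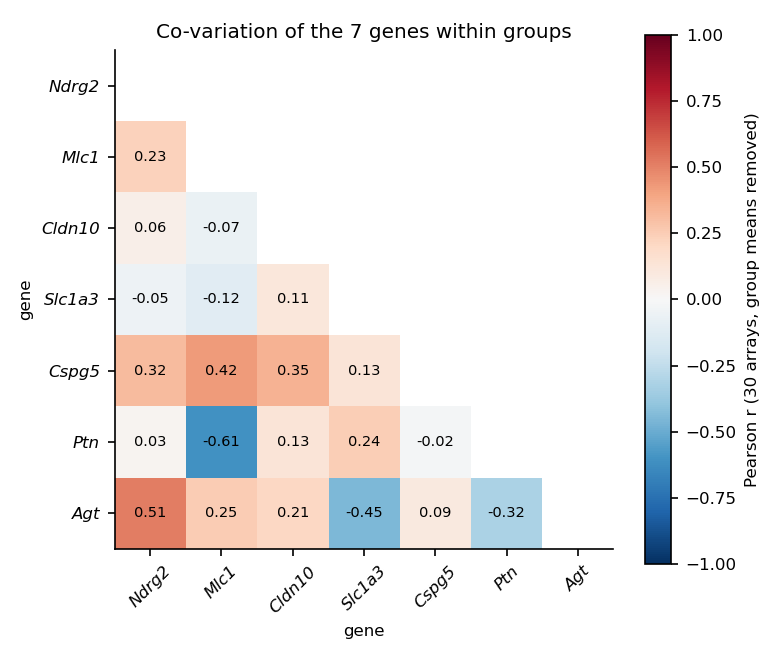
Pearson correlations between the 7 genes (rows and columns) over 30 arrays with group means removed, from blue at -1 to red at 1. The matrix mixes signs, with Ndrg2 and Agt at 0.51 and Mlc1 and Ptn at -0.61 as the 2 extremes.

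Several of the genes also followed regional or other cell-type markers. Of 91 correlations between a gene and a list mean, 13 passed by Pearson's r, and Agt followed the oligodendrocyte precursor (r = 0.752, adjusted p 0.003), thalamic (0.742, 0.003), hypothalamic (0.623, 0.003), choroid plexus (0.604, 0.041) and other astrocyte means (0.558, 0.016), and ran against the pallial excitatory mean (-0.706, 0.008), by within-group permutation. Spearman's rho for these 6 relations was 0.733, 0.727, 0.658, 0.611, 0.628 and -0.677, each with an adjusted p of at most 0.034. Apart from Ttr and Enpp2, the genes of the choroid plexus list lay near the median of all values, and Enpp2 is also on the myelin list. Slc1a3 ran against the thalamic mean (r = -0.765, adjusted p 0.008, rho -0.729) and the myelin mean (-0.601, 0.038, rho -0.554), so in females with much thalamic signal Agt was high and Slc1a3 low. Both thalamic relations rested on females: Agt had r = 0.866 in 15 females and 0.190 in 15 males, and Slc1a3 -0.860 in females and -0.160 in males. Without the 2 arrays farthest from the median they were 0.696 and -0.733.

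Ptn followed the meningeal mean (r = 0.615, adjusted p 0.010, rho 0.634) and the blood mean (0.549, 0.003, rho 0.614) and ran against the myelin mean (-0.607, 0.014, rho -0.590), by within-group permutation over 30 arrays. Without the 2 farthest arrays these were 0.571, 0.559 and -0.588. Ndrg2 followed the mean of the other astrocyte genes (r = 0.596, adjusted p 0.021, rho 0.590, 0.539 without the 2 farthest arrays) in females (0.633) as in males (0.621). Mlc1 ran against the pallial excitatory mean (r = -0.529, adjusted p 0.038, rho -0.545, -0.498 without the 2 farthest arrays). By Spearman's rho alone Cldn10 passed with the general neuronal (rho -0.551, adjusted p 0.031, r -0.451, adjusted p 0.086) and microglial means (0.557, 0.042, r 0.544, adjusted p 0.072). Of the 7 genes, Ndrg2 and Agt were thus the pair that passed with the other astrocyte genes.

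Ranked over 9158 genes by their correlation with the mean of the 7 standardised genes, with group means removed, the nearest were Pltp (r = 0.755), which encodes a phospholipid transfer protein, and C1qc (0.754), a complement C1q chain made by microglia. Retsat (0.739), Bnip2 (0.735), Asrgl1 (0.731), Lmf2 (0.718), Cdc42ep4 (0.716), Tst (0.705), Eci1 (0.686) and Gem (0.677) followed. The most opposed were the co-chaperone gene Dnaja2 (-0.719), the inositol phosphatase gene Impa1 (-0.715), the mitochondrial channel gene Vdac1 (-0.708), Sebox (-0.700) and the pyruvate dehydrogenase subunit gene Dlat (-0.697). Sebox, at a mean log2 intensity of 6.94, lay below the median of all values of 7.02, and Gem, at 7.31, lay close above it. These correlations describe 30 arrays that share groups, tissue cuts and array states, and carry no test.

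For single genes the nearest 3 differed from one to the next. They were Arfgap2 (0.707), Lmf2 (0.693) and Acad10 (0.688) for Ndrg2, and Hm13 (0.845), Akt1 (0.823) and Rnf10 (0.816) for Mlc1. Cldn10 was nearest to Abhd1 (0.711), the ribosomal protein gene Rpl41 (0.677) and Sspn (0.675), and Slc1a3 to Abhd17c (0.849), Ptprg (0.842) and Fgf13 (0.818). Cspg5 was nearest to Brsk1 (0.790), Prrc2a (0.776) and Pitpnb (0.771). Ptn was nearest to the adhesion molecule gene Icam1 (0.832), Polr1f (0.774) and Fxyd5 (0.771), and Agt to Phyhd1 (0.853), Plcd4 (0.846) and Mid1ip1 (0.845). The Icam1 probe was dim, at a mean log2 intensity of 7.27. Only Lmf2 appeared both for a single gene and for the mean of the 7.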

How the data were processed

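RNA of 30 rat amygdalae was measured on Illumina expression BeadChips, 1 array per rat. The log2 intensities of 22523 probes were used as deposited by the authors. Which software and normalization made them is not given in the sources used here. A second deposited table with 60 columns of signals and detection p-values was not used, because its columns were not tied to the labelled rats. Probes were named from the platform annotation (13793 with 1 symbol, 8730 with none). A probe was tested if it exceeded its array's median on at least 5 arrays, which left 13308. One mean per group was fitted to all 30 arrays with limma 3.58.1 in R 4.3.3, with Benjamini-Hochberg adjustment over the 13308 probes and a threshold of 0.05. The p-values measure the spread between rats, and the number of arrays limits their precision. Array-to-array correlations were 0.956 to 0.995, and no 2 columns were identical.

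The 7 genes and all marker lists were chosen with earlier results of these data known. Other astrocyte genes are named by smallest p, up to 4 each way among those called in a comparison and 3 where none was called. By correlation, the 3 genes nearest to each of the 7, and the 10 nearest and 5 most opposed to their mean, are named. Correlations had group means removed and used 100000 within-group permutations. The labels pair no rats, and the numbers follow the order of the arrays within a group. Same-numbered extreme and minimal females deviated together (r of 0.146 to 0.687), and 3 extreme females were closest to the minimal female of their own number. Other group pairs had mean correlations of -0.322 to 0.031. The replicate block was read from these same values and spanned all groups, so it is no test of a paired design. On simulated data for exposed minus control males the fit recovered 97% of 100 probes changed by 1 and 79% of 100 changed by 0.5 on the log2 scale. There were 8 false calls among the unchanged probes of the 13308 simulated. The simulated noise was independent between probes and held no array states or regional differences, so these shares need not hold for the real arrays. Promoter sequences are those of RefSeq for GRCr8. Alternatives were other filters, array weights, robust variances, a replicate block, fits within 1 sex, the array state, the myelin or the 3 regional means as covariates, the second probe of Cspg5, arrays of 1 state, and leaving out each rat. Fits within 1 array state were added after the data had been seen.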

Additional observations from a re-analysis of the deposited data

Results flagged for a closer look

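Of 42 groups of 5 values, 3 held a rat far from the other 4 by Dixon's criterion, and chance alone gives such a rat in about 1 of 20 groups. Ndrg2 in extreme female 5 was 13.29, against a median of 13.81 in its group. Cspg5 in extreme male 1 was 12.36, against a median of 12.70. Agt in minimal female 4 was 10.53, against a median of 12.18.

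The difference between exposed and control rats differed between the sexes for 3 of the 7 genes by limma's interaction term, given as female minus male. It was -0.45 ± 0.11 for Cldn10, -0.84 ± 0.14 for Cspg5 and 1.82 ± 0.51 for Agt (SE), beside 4.49% of all probes called. For Cspg5 the exposed minus control difference was -0.69 in females and 0.15 in males, and for Agt it was 1.02 in females and -0.80 in males. These terms contain the female values by which Cldn10 and Cspg5 were chosen, and what chose Agt is not known here, so they are no independent evidence. All 5 control females were of the lower array state and all 5 control males of the higher state, and the part of the state in these terms was not tested.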

How the results depend on the processing

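Of the log2 differences of the 7 genes, 811 of 840 values with 1 rat left out and 618 of 672 under other settings kept their side of the threshold. These values either kept their direction or, where not called, turned with a shift of at most 1 standard error. Agt in extreme minus minimal females, for example, was -0.07 and reached 0.11 with 1 rat left out. Slc1a3 in males minus females, called in the main fit, turned to -0.059 with the 3 regional means as covariates. Numbers in brackets are the calls over all probes under the same setting. With extreme minus minimal females, 0 of the 7 genes were called in a fit to the female arrays alone (7) and 0 within the lower state (87), where 1 other astrocyte gene was called. With extreme minus control females the number called of the 7 was 1 in the female arrays alone (327), 1 with the array state as a covariate (590), 5 with the 3 regional means (975) and 0 within the lower state (686), where 1 rat was set against 5. The other astrocyte genes called there numbered 2 with the replicate block (867), 0 in female arrays alone, 3 with the state, 3 with the myelin mean (1011), 2 with the regional means and 2 within the lower state. With minimal minus control females 1 of the 7 was called with the second Cspg5 probe (263). There the other astrocyte genes numbered 1 without a filter (313), with array weights (427), with robust variances (236) and with the myelin mean (358), 0 with the stricter filter (140), in female arrays alone (70) and with the regional means (282), and 5 within the lower state (379). With exposed minus control females they numbered 2 without a filter (913), with the myelin mean (985) and with the regional means (892), and 0 in female arrays alone (352). Array weights called 3 of the 7 in extreme minus minimal males (201), 2 in extreme minus control males (362) and 1 in exposed minus control males (194), and male arrays alone called 1 in each of these (76, 350 and 53). Of the other astrocyte genes, 1 was called with array weights in extreme minus minimal and in extreme minus control males, and 1 with the regional means in extreme minus control males (282). In males minus females 0 of the 7 and 0 of the other genes were called with the myelin (82) or the regional means (105). No pair of the 7 passed in the lower-state or higher-state arrays only (0 each). The cause of these changes was not tested.

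With 1 rat left out, the number called of the 7 was 2 to 4 in exposed minus control females, 2 to 4 in extreme minus control females, 2 to 3 in minimal minus control females, 1 in extreme minus minimal females, 0 to 1 in extreme minus minimal males (1, Ptn, without minimal male 1) and 2 to 3 in males minus females. For the other astrocyte genes it was 0 to 4, 0 to 2 and 0 to 3 in these 3 female comparisons against control and 6 to 13 in males minus females. The number of pairs of the 7 past the threshold was 0 to 2. With the replicate number as a blocking factor the number of the 7 genes called was unchanged in every comparison, with 1 in extreme minus minimal females, 3 in extreme minus control females and 2 in minimal minus control females. The labels pair no rats by that number. Over all probes, extreme minus control males had 106 called, 44 with robust variances, 59 without a filter and 3 without control male 3. With the state as a covariate 0 were called, in a fit that cannot part condition from state in these males. Male minus female had 2553. The numbers of arrays per group limit the precision of all differences.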
